A study of Mus musculus with 11 samples.

Results

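The interferon-inducible GTPases of the mouse kidney are described here through 10 genes. Of these, 5 are guanylate-binding proteins (GBPs), namely Gbp2, Gbp3, Gbp4, Gbp5 and Gbp7, and 5 are immunity-related GTPases (IRGs), namely Irgm1, Irgm2, Igtp, Iigp1 and Tgtp2. They were taken by symbol from the 25677 genes of the count table, with earlier results of these data known. All 10 were listed, and all 10 passed the filter on low counts in each comparison. RNA was sequenced from kidneys of 3 female C57BL/6J mice (Ctr), 4 female MRL/lpr mice without DNase I (Lpr) and 4 female MRL/lpr mice injected intraperitoneally with DNase I each day from week 17 (DNase). Every mouse was 21 weeks old at sampling and gave 1 library. Both MRL/lpr groups carry the Fas mutation of that strain, whereas the labels give the control genotype as C57B6. No MRL mice without the mutation were compared, so strain and disease cannot be told apart in a difference from Ctr. DNase I breaks down extracellular DNA, and the study asked how the MRL/lpr kidney differed from the control kidney and whether treatment changed it.

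GBPs and IRGs are GTPases of cell-autonomous immunity. Interferon-gamma binds its receptor, which signals through the kinases Jak1 and Jak2, and interferon regulatory factors are among the proteins that switch the genes on. The proteins coat the vacuoles in which intracellular bacteria and parasites grow, and GBPs also promote inflammasome activation. Many cell types respond to the cytokine in this way, among them macrophages, endothelial cells and epithelial cells.

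Between 33469858 and 38460873 counts per kidney were assigned to genes. Markers of podocytes, proximal tubules and distal tubules were detected in every group, as the labelled tissue would have. One library stood apart, Lpr 3, in which longer genes had lower counts. Its log2 level relative to the other kidneys fell by 0.392 for each doubling of gene length, against slopes of -0.0385 to 0.0804 in the other 10 kidneys, and results that rest on it are given with and without it. The labels give no batch or sequencing date.

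The genes lie in clusters. By the GENCODE annotation of mm10, Gbp5, Gbp7, Gbp3 and Gbp2 follow each other on the plus strand of chromosome 3, from the start of Gbp5 at 142493978 to the end of Gbp2 at 142638008. Gbp4 lies on the minus strand of chromosome 5 at 105115767 to 105139586, where its locus overlaps those of Gbp8 and Gbp9. On chromosome 11 lie Irgm1 (48861968 to 48871683) and Tgtp2 (49057194 to 49064206) on the minus strand and Igtp (58199556 to 58207591) and Irgm2 (58199618 to 58222782), whose loci overlap, on the plus strand. Iigp1 lies on chromosome 18. Gene copies limit what the counts can resolve for Tgtp2, since 76.8% of the 100-base stretches of its transcripts also occur in transcripts of Tgtp1 or Gm12185. The share was 10.0% for Gbp7, 5.16% for Igtp, 3.01% for Irgm2 and at most 1.64% for the other 6 genes.

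The promoters of these genes were examined because most of the members moved together across kidneys, as described further on. RefSeq promoter windows (GRCm38.p6, 250 bases before to 50 bases after the start site) were held for 8 of the 10 genes, all but Gbp4 and Iigp1, with 9 windows in all because Gbp3 had a second start site. A gamma-activated site (GAS), an element of interferon-gamma responsive promoters, was searched as TTCNNNGAA, and the core of an interferon-stimulated response element (ISRE), bound by interferon regulatory factors, was searched as GAAANNGAAA, both on either strand. The ISRE letters were present in 8 of 9 windows, against 3.44% of all 32851 windows of this length. The GAS letters were present in 5 of 9, against 8.3%, and the second Gbp3 window held neither. The windows of Gbp5, Gbp7, Irgm2, Igtp and Tgtp2 held both, as 0.454% of all windows did. A match of letters is a description and does not show that a factor binds there. The windows are those of the reference genome, and the promoter sequence of the MRL/lpr mice was not examined.

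Stretches of these windows are shown to compare the arrangement of the elements, 5′ to 3′ on the strand of the gene, with GAS and ISRE letters in capitals. Gbp5 is not shown. Its GAS matches began at -245 and -52 and its ISRE match at -165, counted in bases from the start site.
Irgm2 (chr11:58214887-58214937, plus strand): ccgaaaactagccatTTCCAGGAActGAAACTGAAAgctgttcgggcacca
Igtp (chr11:58199496-58199546, plus strand): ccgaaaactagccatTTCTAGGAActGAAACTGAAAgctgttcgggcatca
Tgtp2 (chr11:49064258-49064308, minus strand): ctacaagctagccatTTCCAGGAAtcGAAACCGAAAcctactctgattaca
Irgm1 (chr11:48871428-48871457, minus strand): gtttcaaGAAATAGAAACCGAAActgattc
Gbp2 (chr3:142620589-142620628, plus strand): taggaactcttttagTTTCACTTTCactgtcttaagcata
Gbp3 (chr3:142559984-142560029, plus strand): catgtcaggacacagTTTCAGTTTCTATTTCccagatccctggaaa
Gbp7 (chr3:142530215-142530307, plus strand): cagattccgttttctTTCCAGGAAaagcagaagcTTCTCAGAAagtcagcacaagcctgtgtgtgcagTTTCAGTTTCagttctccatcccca

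In Irgm2, Igtp and Tgtp2 the GAS, whose letters read the same on both strands, was followed after 2 bases by an ISRE in the direction of the gene. This arrangement, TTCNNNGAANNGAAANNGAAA on either strand, was searched after these sequences had been seen, and it occurred in 5 of the 32851 windows (0.0152%). The 5 were those of Irgm2, Igtp, Tgtp2, Tgtp1 and Gm12185, all IRG genes of chromosome 11. The 51-base stretches of Igtp and Irgm2 were the same at 49 bases, and that of Tgtp2 was the same as Igtp at 35. The arrangement was taken from the stretches of Irgm2, Igtp and Tgtp2, so the 5 windows are not independent and its rarity is not a test. Irgm1 and the first window of Gbp3 each held a pair of overlapping ISRE matches and no GAS, and Gbp2 held a single ISRE. The ISRE matches of Irgm1 ran in the direction of the gene, and those of Gbp2, Gbp3, Gbp5 and Gbp7 lay on the opposite strand.

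**Figure D1:**
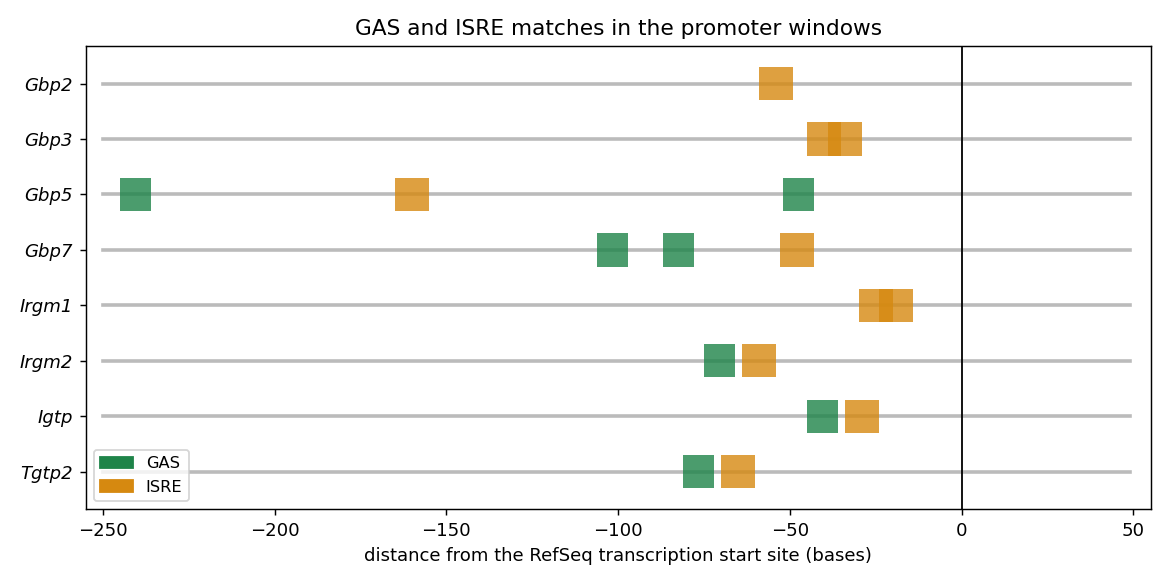
Positions of GAS matches (green) and ISRE matches (orange) in the first RefSeq promoter window of 8 genes. The second Gbp3 window, which held no match, is not drawn. The x axis is the distance from the transcription start site in bases, and each grey line is 1 window of 300 bases. In Irgm2, Igtp and Tgtp2 a GAS stands directly before an ISRE.

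All 10 genes were higher in Lpr kidneys than in Ctr kidneys. With edgeR's quasi-likelihood test, 10 of 10 passed at a Benjamini-Hochberg adjusted p under 0.05 over 16074 genes, whereas 7.27% of all tested genes passed in this direction. By the study's rule, which adds an absolute log2 fold change above 2 (4-fold), 9 of 10 were called, all but Gbp3, against 4.65% of all tested genes. The median log2 fold change of the 10 genes was 3.07, and that of all tested genes was 0.03. For each of the 10 genes every Lpr kidney lay above every Ctr kidney, a separation that 14.4% of all tested genes showed in this direction.

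Among the IRGs, the regulatory members Irgm1, Irgm2 and Igtp (also named Irgm3) keep the effector members in an inactive state on the membranes of the cell itself. Igtp was counted at 20.7, 39.9 and 20.05 CPM (counts scaled to a common library size) in the 3 Ctr kidneys and at 944, 573, 198 and 392.4 CPM in the 4 Lpr kidneys. Its log2 fold change was 4.30 (SE 0.582, edgeR adjusted p = 0.00241), a 19.7-fold difference, and the lowest Lpr kidney was Lpr 3. Irgm1 lay at 60.6, 68.8 and 50.3 CPM in Ctr and at 715, 550, 234 and 330 CPM in Lpr. It was 7.67-fold higher, with a log2 fold change of 2.94 (SE 0.403, edgeR adjusted p = 0.00253). Irgm2 lay at 32.9, 45.2 and 29.2 CPM in Ctr and at 497, 288, 96.9 and 245 CPM in Lpr. It was 7.91-fold higher (log2 2.98, SE 0.510, edgeR adjusted p = 0.00695), so both had lower fold changes than Igtp, a difference between genes that was not tested.

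The effector IRGs load onto the vacuole membrane and break it. Iigp1 (also named Irga6) had the highest fold change of the 10 genes. It lay at 16.1, 27.3 and 15.3 CPM in Ctr and at 866, 847, 160 and 509 CPM in Lpr, a 30.6-fold difference (log2 4.94, SE 0.633, edgeR adjusted p = 0.00191). Even the lowest Lpr kidney was several times above the highest Ctr kidney. Tgtp2 (also named Irgb6) lay at 7.83, 17.9 and 6.68 CPM in Ctr and at 311, 234, 53.4 and 122 CPM in Lpr, with a log2 fold change of 4.07 (SE 0.677, edgeR adjusted p = 0.00618). Because reads of Tgtp2 and its copy Tgtp1 are hard to separate, their counts were also summed, a choice made after the data had been seen. The sum gave a log2 fold change of 4.46 (SE 0.685, edgeR adjusted p = 0.00429). The ratio of Tgtp1 to Tgtp2 counts was 1.12 to 1.17 in the 3 Ctr kidneys and 1.68 to 2.07 in the 8 MRL/lpr kidneys, so the split between the copies was not the same in the strains.

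Among the GBPs, Gbp2 is anchored to membranes by a lipid group and gathers on pathogen vacuoles. It lay at 23.7, 34.3 and 19.4 CPM in Ctr and at 870, 536, 193 and 309 CPM in Lpr, an 18.6-fold difference (log2 4.21, SE 0.559, edgeR adjusted p = 0.00223). Gbp4 lay at 7.94, 6.57 and 5.51 CPM in Ctr and at 78.3, 92.0, 16.96 and 51.1 CPM in Lpr (log2 3.16, SE 0.543, edgeR adjusted p = 0.00706). Gbp7, which has been linked to assembly of the phagocyte oxidase, lay at 12.3, 15.4 and 9.65 CPM in Ctr and at 138, 114, 21.2 and 88.8 CPM in Lpr. Its log2 fold change was 2.87 (SE 0.572, edgeR adjusted p = 0.0144), and the nearest kidneys of the groups, Lpr 3 and Ctr 2, lay closer than for Gbp2.

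Gbp5 and Gbp3 changed least. Gbp5, a GBP that promotes inflammasome activation, lay at 3.73, 3.06 and 3.15 CPM in Ctr and at 24.0, 19.9, 6.50 and 11.7 CPM in Lpr (log2 2.23, SE 0.440, edgeR adjusted p = 0.0135). Gbp3 lay at 35.6, 41.0 and 46.5 CPM in Ctr and at 107, 166, 82.8 and 78.3 CPM in Lpr, a 2.66-fold difference (log2 1.41, SE 0.288, edgeR adjusted p = 0.0159). Gbp3 thus had the lowest fold change of all 10 genes, although its groups did not overlap. The results of Gbp3, Gbp5 and Gbp7 depended on having all 3 Ctr kidneys. With any one of Ctr 1, Ctr 2 or Ctr 3 left out, 7 of the 10 genes passed, and these 3 genes had edgeR adjusted p between 0.052 and 0.0889. The loss was not particular to them. Over all tested genes, those that passed as higher fell from 1169 to 641, 653 and 653 in these settings.

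**Figure D2:**
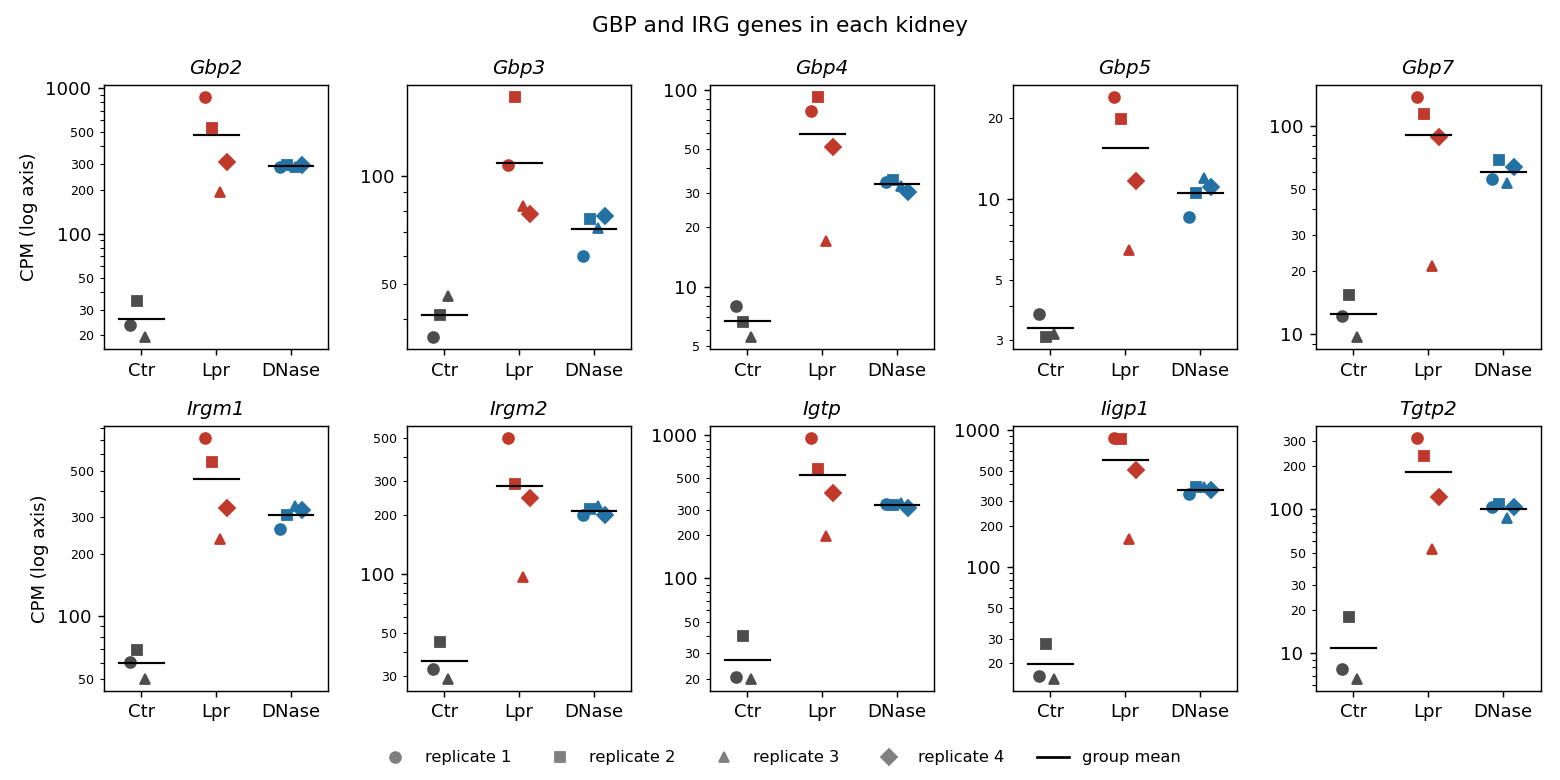
CPM of each gene in each kidney, on a log axis whose range differs between panels, by group, with the symbol giving the replicate number and the black bar the mean of the group. Every Lpr and DNase kidney lies above every Ctr kidney for all 10 genes, and the 4 DNase kidneys lie close together, for Gbp2 between 286 and 298 CPM.

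Levels of different genes were compared by FPKM, which the authors scaled by gene length. In Ctr kidneys Irgm1 had the highest mean, at 20.9 ± 2.73 FPKM (SD, n = 3), followed by Igtp at 12.7 ± 4.96, Gbp3 at 12.5 ± 1.76, Gbp2 at 10.1 ± 2.72 and Irgm2 at 9.78 ± 2.01. Next came Iigp1 at 5.40 FPKM, Tgtp2 at 3.67, Gbp7 at 2.13, Gbp4 at 1.23 and Gbp5 at 1.06. Of these neighbours only Irgm2 and Iigp1, and Gbp7 and Gbp4, had ranges that did not overlap. In Lpr kidneys the order by mean FPKM was Igtp (261), Gbp2 (195), Iigp1 (173), Irgm1 (166), Irgm2 (80.5), Tgtp2 (64.3), Gbp3 (34.2), Gbp7 (16.2), Gbp4 (11.5) and Gbp5 (5.17), and every pair of neighbours overlapped. In DNase kidneys Igtp was again highest (165 FPKM), followed by Gbp2 (123), Irgm1 (115), Iigp1 (109), Irgm2 (62.1), Tgtp2 (36.9), Gbp3 (23.2), Gbp7 (11.1), Gbp4 (6.52) and Gbp5 (3.61). There the ranges of neighbours overlapped only between Gbp2 and Irgm1 and between Irgm1 and Iigp1. Gbp3 stood in the third place in Ctr and in the seventh in both MRL/lpr groups, while Iigp1 moved from the sixth place to the third in Lpr. The 10 genes together took 0.0203% to 0.0280% of all counts in Ctr kidneys, 0.0981% to 0.451% in Lpr kidneys and 0.175% to 0.190% in DNase kidneys.

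DNase kidneys also had higher levels of all 10 genes than Ctr kidneys. In this comparison 10 of 10 passed (edgeR, adjusted p under 0.05), against 13.1% of 16100 tested genes, and 8 of 10 were called, all but Gbp3 and Gbp5, against 4.56%. The Ctr kidneys are the same as in the comparison above, so the comparisons are not independent. The log2 fold change was highest for Iigp1 (4.23, SE 0.211, edgeR adjusted p = 3.25e-06), followed by Igtp (3.60, SE 0.243) and Gbp2 (3.51, SE 0.182). It was lowest for Gbp3 (0.80, SE 0.119, edgeR adjusted p = 0.00122), which had an adjusted p of 0.0527 when all 3 groups shared 1 fit. Gbp5 lay at 1.67 (SE 0.166, edgeR adjusted p = 0.000114). Between these were Tgtp2 (3.23, SE 0.313), Irgm2 (2.57, SE 0.147), Irgm1 (2.36, SE 0.134), Gbp4 (2.31, SE 0.135) and Gbp7 (2.28, SE 0.162). The median was 2.46, and that of all tested genes was 0.00. Again every DNase kidney lay above every Ctr kidney for each of the 10 genes, which 18% of all tested genes did. The standard errors were smaller than those of Lpr against Ctr for all 10 genes.

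No member passed between DNase and Lpr. All 10 log2 fold changes were below 0 and lay between -0.84 (Gbp4) and -0.41 (Irgm2), with a median of -0.65, against -0.02 for all 15832 tested genes. In edgeR's quasi-likelihood test each of the 10 had an adjusted p of 0.854, and no gene of the table passed, called genes making up 0% of those tested. One of the 10, Gbp3, had an unadjusted p below the threshold (0.0291, edgeR), against 3.43% of all tested genes in this direction and 886 genes of either direction. DESeq2 passed 17 genes of the table in this comparison and none of the 10.

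The 95% intervals show what size of difference remained possible. For Iigp1 the log2 fold change of -0.70 had an interval of -1.63 to 0.24, and for Gbp4 that of -0.84 ran from -1.76 to 0.07. The intervals of Gbp2 (-1.56 to 0.16), Igtp (-1.55 to 0.16), Tgtp2 (-1.81 to 0.14) and Irgm1 (-1.26 to 0.12) likewise held 0. So did those of Irgm2 (-1.27 to 0.45), Gbp7 (-1.56 to 0.40) and Gbp5 (-1.34 to 0.23). Only that of Gbp3 (-1.13 to -0.08) did not hold 0. Gbp3 was also the only member in which every DNase kidney, at 59.9, 75.8, 71.5 and 77.6 CPM, lay below every Lpr kidney, a separation shown by 1.87% of all tested genes. The nearest pair, DNase 4 and Lpr 4, differed by less than 1 CPM.

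**Figure D3:**
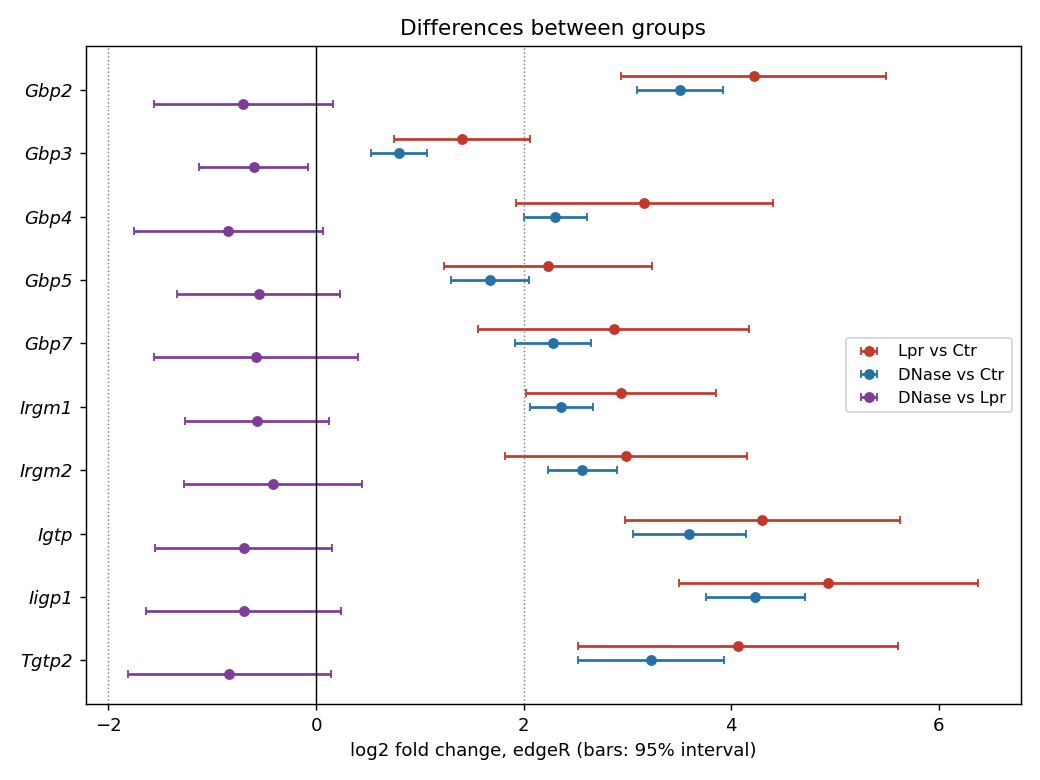
Log2 fold change of each gene in the 3 comparisons, with bars for the 95% interval of edgeR's fit and dotted lines at the study's threshold of 2 on either side of 0. Both comparisons with Ctr lie above 0 for all 10 genes, and the DNase against Lpr values lie between -0.84 and -0.41 with intervals that hold 0 for all genes but Gbp3.

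The Lpr kidneys differed widely among themselves, whereas the DNase kidneys were nearly level. Summed over the 10 genes, the Lpr kidneys held 4551, 3420, 1063 and 2137 CPM, and the DNase kidneys 1676, 1827, 1817 and 1779 CPM, beside 221, 299 and 206 CPM in Ctr. The highest, Lpr 1, was thus above all DNase kidneys and the lowest, Lpr 3, was below all of them. Gbp2 lay at 286, 298, 287 and 298 CPM in the DNase kidneys, Igtp at 327, 324, 335 and 308, and Iigp1 at 338, 385, 379 and 361. The coefficient of variation of CPM was 37.1% to 63.8% across the 10 genes in Lpr (median 55.7%) and 2.28% to 13.5% in DNase (median 7.61%). Over all tested genes the medians were 28.9% and 11.9%, and 85.1% of tested genes varied more in Lpr than in DNase, as all 10 members did. Without Lpr 3 the medians in Lpr were 37.2% for the 10 genes and 14.4% for all tested genes. These coefficients are given as a description, and the difference in spread was not tested.

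The Lpr kidneys kept nearly the same order from gene to gene, whereas the order of the DNase kidneys varied. Among the 8 MRL/lpr kidneys Lpr 1 and Lpr 2 took the highest and the next rank for all 10 genes, Lpr 1 leading for 8 of them. Lpr 4 ranked 3 or 4, and Lpr 3 was lowest for 9 of the 10 genes, the exception being Gbp3, where it ranked 3 and DNase 1 was lowest. DNase 3, in contrast, ranked between 3 and 7. In Lpr 3 the log2 level of the members differed from the mean of the other Lpr kidneys by values from -0.43 (Gbp3) to -2.39 (Gbp7). Tested genes of like length, within a factor of 1.1, had median differences of -0.45 to 0.43, and between 0.688% and 24.4% of them lay lower than the member. Each member lay further below this mean in Lpr 3 than the median gene of its length. The mean includes Lpr 1 and Lpr 2, the highest kidneys for all 10 genes. The part of gene length in the level of the members in Lpr 3 was not tested.

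**Figure D4:**
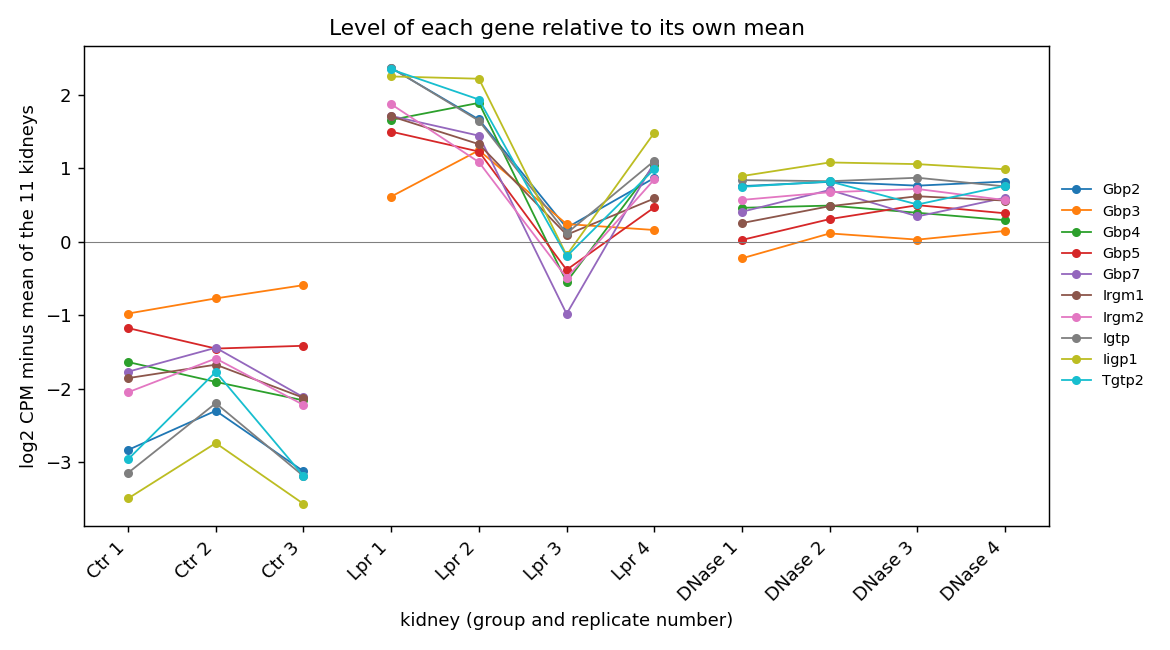
Log2 CPM of each gene in each kidney minus its own mean over the 11 kidneys, with lines joining the values of 1 gene within a group. Most of the genes rise and fall together across the Lpr kidneys, with Lpr 1 and Lpr 2 at the top and Lpr 3 lowest of the group for all but Gbp3. The DNase kidneys are nearly flat and the Ctr kidneys lie at the bottom.

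The difference between DNase and Lpr therefore depended on single kidneys. Without Lpr 3, the log2 fold changes lay between -0.70 and -1.16 (median -0.94), and 10 of 10 had an unadjusted p under 0.05 in edgeR, against 5.98% of all tested genes lower at that threshold. None passed after adjustment, with adjusted p between 0.25 and 0.362. Against Lpr 1, Lpr 2 and Lpr 4 alone, every DNase kidney lay lower for 8 of the 10 genes, all but Gbp5 and Irgm1, as it did for 5% of tested genes. Lpr 3 was the lowest MRL/lpr kidney for 9 of the 10 genes, so leaving it out raised the Lpr level of most members at once. Most members moved together across the Lpr kidneys, so these counts of genes are not counts of independent results. Without Lpr 1, the kidney with the highest sum, the median was -0.28, 0 of 10 had an unadjusted p under 0.05, and Irgm2 turned to 0.02 (edgeR adjusted p = 0.988). Gbp3 was an exception, at -0.61 without Lpr 1 and between -0.73 (without Lpr 4) and -0.33 (without Lpr 2) over all kidneys left out.

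**Figure D5:**
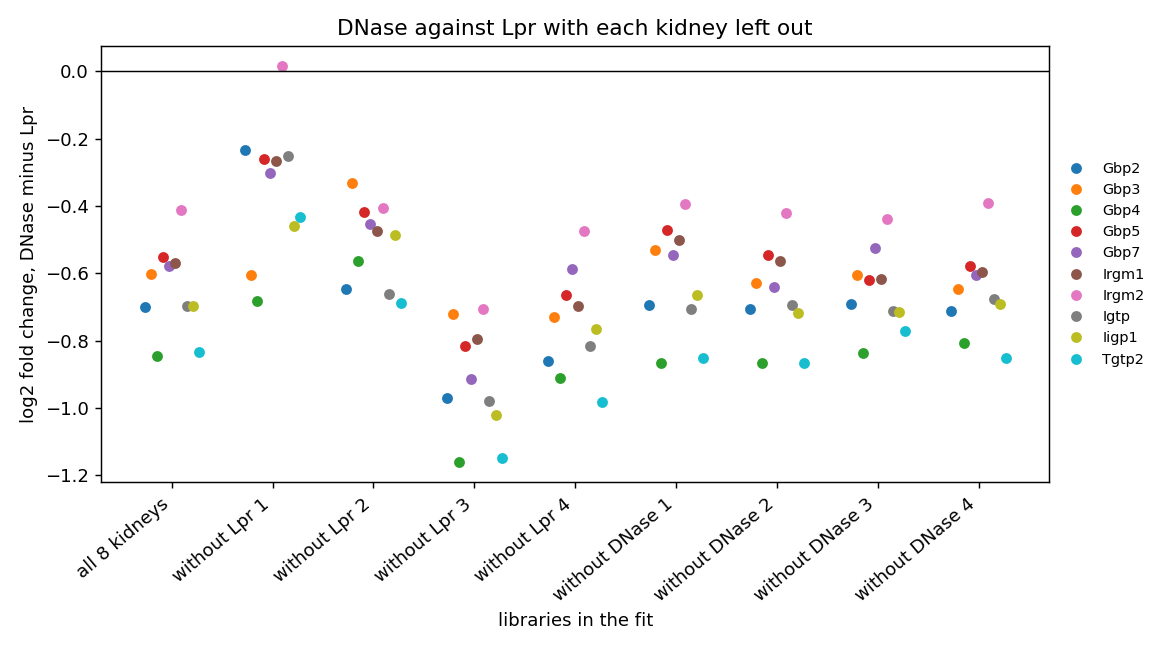
Log2 fold change of DNase against Lpr for each gene (y axis) with all 8 kidneys and with each kidney left out in turn (x axis). Leaving out Lpr 1 brings the values of all genes but Gbp3 nearer to 0, with Irgm2 at 0.02, and leaving out Lpr 3 moves them to between -0.70 and -1.16, while leaving out a DNase kidney changes them little.

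Most other GTPases, from a list of GBPs, IRGs and further large interferon-inducible GTPases, were also higher in Lpr than in Ctr. Of 17 listed genes 13 were in the table, all but Gbp11, Iigp1b, Mx1 and Mx2, and 12 were tested. Of the 12, 9 passed and 8 were called as higher in Lpr than in Ctr (edgeR), with none lower and a median log2 fold change of 4.29. The highest was Gbp8 (5.79), at 0.319 to 0.617 CPM in Ctr and 8.72 to 33.2 CPM in Lpr. Next were Gm12185 (5.16), Gm12250 (4.92, also named Irgb10), Tgtp1 (4.73), Gbp6 (4.71), Gbp10 (4.60) and Gm4951 (3.85). Gbp2b, the mouse Gbp1, was rare, at 0.331 to 2.56 CPM in Lpr (log2 2.93, edgeR adjusted p = 0.0454), and Gbp9 passed at 1.92. F830016B08Rik, a homologue in the IRG cluster of chromosome 18, had a log2 fold change of 3.99 and missed the threshold (edgeR adjusted p = 0.0506).

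Not every GTPase of this list was higher. Irgq, a divergent IRG, had a log2 fold change of -0.19 (edgeR adjusted p = 0.709), and Gvin1, a very large interferon-inducible GTPase, one of 0.01 (edgeR adjusted p = 0.994). Irgc1 was too low to be tested. Counts of Gbp6, Gbp10 and Gvin1 are uncertain, because 64.5%, 73.5% and 97.8% of their 100-base stretches occur in other genes. DNase against Ctr passed 9 of the 12, with Gbp2b at an adjusted p of 0.0548 and F830016B08Rik at a log2 fold change of 3.63. DNase against Lpr passed none in edgeR or DESeq2, with 1 of 12 at an unadjusted p under 0.05, 10 of 12 lower and a median of -0.69.

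Genes of interferon-gamma signalling were examined beside the members. Of 26 tested, 17 passed as higher in Lpr than in Ctr and 12 were called (edgeR), with none lower and a median log2 fold change of 1.85, and the 17 became 10 with any 1 of the Ctr kidneys left out. Ifng, the cytokine itself, was rare, with 1 to 3 counts per Ctr kidney and 20 to 42 counts per Lpr kidney (edgeR adjusted p = 0.00391), and no fold is given for so few control counts. Of the receptor and its kinases, Ifngr1 (0.57, adjusted p = 0.259), Ifngr2 (0.77, 0.0688), Jak1 (0.38, 0.267) and Jak2 (0.20, 0.577) did not pass in edgeR. Downstream, the regulatory factors Irf1 (log2 2.70, adjusted p = 0.00223) and Irf8 (1.73, 0.0138) passed. So did Socs1, a feedback inhibitor of the receptor kinases (3.03, adjusted p = 0.00414). DNase against Ctr passed 23 of this list, 10 of them called, with a median of 1.63. DNase against Lpr passed 0 of 27 in edgeR or DESeq2, with 2 at an unadjusted p under 0.05, 21 lower and a median of -0.30.

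Genes outside the members were ranked by how much their pattern was like that of the members. Likeness was measured as the root mean square difference of centred log2 CPM from the mean of the 10 genes, over genes past the filter in the 3 groups. Over the 11 kidneys the nearest genes that are not members included Tap1 (0.236), Gm7609 (0.261), Gm4951 (0.283) and Nlrc5 (0.308), while the median gene lay at 1.43. Over the 8 MRL/lpr kidneys alone they included Herc6 (0.121), Tap1 (0.122), Ifi44 (0.155) and Tgtp1 (0.157), with the median gene at 0.679. Gbp3 was the member least like the rest, at 0.915 over the 11 kidneys and 0.440 over the 8.

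Ifng did not order the MRL/lpr kidneys as the members did. It lay at 1.097, 0.522, 1.26 and 0.654 CPM in the 4 Lpr kidneys and at 0.386, 0.761, 1.08 and 1.21 CPM in the 4 DNase kidneys. Its highest value was in Lpr 3, the kidney with the lowest level of 9 of the 10 GTPases, and Lpr 2, the kidney with the next-to-highest sum of the members, was among the lowest for Ifng. These levels rest on 14 to 47 Ifng counts per kidney, so the order is imprecise. Ifng has a length of 1210 bases and the members have 2023 to 5622, and longer genes had lower counts in Lpr 3. The part of length in the rank of Lpr 3 was not tested. Without Lpr 3, Lpr 1 was the highest Lpr kidney for Ifng, as for the sum of the members, and Lpr 2 the lowest. Between DNase and Lpr its log2 fold change was -0.03 (edgeR adjusted p = 0.99), with an interval of -0.998 to 0.94.

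Partners of the GTPases were compared as well. Of 15 genes of autophagy, 0 passed in any comparison by edgeR (0, 2 and 0 at an unadjusted p under 0.05). The list holds the ubiquitin-like conjugation system, which helps to place IRGs and GBPs on membranes, and the ubiquitin-linked genes Sqstm1, Nbr1, Traf6 and Ubqln1. Its medians were 0.01, -0.10 and -0.09 for Lpr against Ctr, DNase against Ctr and DNase against Lpr. DESeq2 passed 1 of them, between DNase and Ctr. The highest of them in Lpr against Ctr were Atg3 (0.35), Gabarap (0.35) and Gabarapl2 (0.12), and the lowest was Gabarapl1 (-0.55). Of 11 genes of the inflammasomes on which GBPs act, 6 passed and 5 were called as higher in Lpr than in Ctr, led by Il1b (3.44), Aim2 (3.42) and Casp1 (2.76), with Ninj1 (0.12) lowest. Of these 11, 7 passed for DNase against Ctr, and 0 passed for DNase against Lpr by edgeR or DESeq2, also at an unadjusted p under 0.05.

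Markers of immune cells were also higher in both MRL/lpr groups. In whole kidney RNA, a change in the number of cells of a type and a change in RNA per cell cannot be told apart. Of 9 T cell markers tested, 9 passed as higher in Lpr than in Ctr, and their summed level was 5.52 to 8.32 CPM in Ctr, 87.4 to 193 CPM in Lpr and 87.1 to 142 CPM in DNase. Of 7 macrophage markers 7 passed, with sums of 141 to 179, 621 to 1258 and 498 to 936 CPM. For B and plasma cells 3 of 6 passed (9.06 to 31.3, 157 to 731 and 290 to 1031 CPM), for NK cells 2 of 3 tested (1.199 to 2.04, 10.8 to 33.3 and 10.8 to 19.4 CPM) and for neutrophils 3 of 4 tested (1.62 to 4.88, 15.3 to 36.9 and 13.2 to 24.5 CPM). Ly6g, a neutrophil marker, was at 0 in every Ctr kidney and nearly absent in the others, at 0 to 0.0844 CPM in Lpr and 0 to 0.0815 CPM in DNase. It was too low to be tested in Lpr against Ctr. DNase against Ctr passed 9 of 9, 7 of 7, 6 of 6, 2 of 4 and 3 of 4 markers of these 5 lists. Between DNase and Lpr no gene of these lists passed in edgeR or DESeq2, with 2 B and plasma cell markers, both higher in DNase, and 1 macrophage marker, lower in DNase, at an unadjusted p under 0.05. The median log2 fold change was 0.51 for B and plasma cell markers, with 6 of 6 higher, and -0.41 for macrophage markers, with 7 of 7 lower. The part of these cells in the level of the GTPases was not tested.

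Within the Lpr group the GTPases and most of these marker lists were ordered differently. Among the immune cell lists the exception was neutrophils, with low sums of 36.9, 27.7, 15.8 and 15.3 CPM in Lpr 1, Lpr 2, Lpr 3 and Lpr 4. That order differed from the order of the GTPases only between Lpr 3 and Lpr 4. Podocyte markers (709, 625, 370 and 701 CPM in Lpr 1, Lpr 2, Lpr 3 and Lpr 4) also had Lpr 1 highest and Lpr 3 lowest. So did proximal tubule markers, at 10284, 7626, 5105 and 9253 CPM in the same kidneys. These likenesses of order were not tested. Lpr 1 had the highest sum of the 10 GTPases, at 4551 CPM, and the lowest T cell sum of the group, at 87.4 CPM. It was also lowest of the group for B and plasma cells (157 CPM) and for NK cells (10.8 CPM). Lpr 3, the lowest for the GTPases at 1063 CPM, had a T cell sum of 108 CPM and a macrophage sum of 882 CPM. The latter was above the 621 CPM of Lpr 4, whose GTPases summed to 2137 CPM. Longer genes had lower counts in Lpr 3, and the part of gene length in these sums was not tested. Without Lpr 3, Lpr 2 was highest for T cell (193 CPM) and macrophage markers (1258 CPM), and Lpr 1 for the GTPases. Markers of the resident cells did not pass in Lpr against Ctr in edgeR, at 0 of 6 for endothelial cells, 0 of 5 for podocytes, 0 of 6 for proximal tubules and 0 of 6 for distal tubules and collecting ducts. Their median log2 fold changes were -0.27, -0.49, -0.42 and -0.39. In each list 1 gene had an unadjusted p under 0.05, and DESeq2 passed 1 podocyte and 1 distal tubule marker.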

How the data were processed

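RNA was measured in 11 kidneys, each from 1 mouse. The gene counts were deposited by the authors as raw whole numbers. The reads were 100 bp and paired, and the study's methods name HTSeq, a counting tool, for their alignment to reference genes. The FPKM values were deposited by the authors and divide those counts by library total and gene length. The submitters' processing notes name fastp, DESeq2, R 3.2.0 and the build mm10. A separate aligner, the annotation and strandedness are not given in the sources used here. The number of unused columns was 0.

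Groups were compared in pairs with edgeR 4.0.16 (R 4.3.3) by its quasi-likelihood test, after filterByExpr and TMM normalization, with Benjamini-Hochberg adjustment over all tested genes. DESeq2 (1.42.0), the tool named by the study, served as an alternative, as did limma 3.58.1 on log2(FPKM + 1) and log2(FPKM + 0.1), with a mean FPKM of at least 0.5. CPM was scaled by TMM over all kidneys, and log2 CPM used a prior count of 2. The procedure was tested on simulated data. The smallest chi-square per degree of freedom between the counts of 2 kidneys of a group was 17.5, so no 2 of them agreed within sampling noise. With 1 library per mouse, spread between mice and between library preparations cannot be told apart.

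The 10 genes, the gene lists and the rule for naming genes were chosen with earlier results of these data known. The rule names all members and all listed relatives, 9 fixed genes of the interferon-gamma pathway, the 5 genes most like the members, and the 3 highest and 1 lowest of the partner lists. Ly6g was named after its values were seen, and values of 1 gene that the rule names are left out. Replicate numbers did not pair the kidneys. Other alternatives changed the normalization, filter, fit and block, and left out each kidney. Promoter windows came from RefSeq and gene loci and transcripts from GENCODE M21, and transcripts were compared by stretches of 100 bases.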

Additional observations from a re-analysis of the deposited data

How the results depend on the processing

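The 10 genes kept their direction against Ctr under all 17 alternatives for each comparison. In Lpr against Ctr, 6 of the 10 passed at an adjusted p under 0.05 in limma on log2(FPKM + 1) without a filter, where Gbp3, Gbp4, Gbp5 and Gbp7 did not, and 6 were called. The cause was not tested. In limma on log2(FPKM + 1), 8 were called in Lpr against Ctr and 6 in DNase against Ctr, where Gbp4 (1.76) and Gbp7 (1.95) fell short of the fold threshold. With 1 kidney left out, 7 to 10 passed and 7 to 9 were called in Lpr against Ctr, 10 passed and 8 were called in DNase against Ctr, and 0 passed in DNase against Lpr. Gbp3 in DNase against Ctr had an adjusted p of 0.0527 with all 3 groups in the fit. Over all genes the background moved as well. In limma on log2(FPKM + 1), 183 genes were called higher in Lpr than in Ctr and 155 in DNase than in Ctr, against 747 and 734 in edgeR. Genes that passed as higher numbered 641 to 1748 over the alternatives in Lpr against Ctr (1169 as reported) and 1236 to 2767 in DNase against Ctr (2107 as reported).

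In DNase against Lpr, Irgm2 reversed to 0.0165 without Lpr 1, and with 1 kidney left out it ranged from -0.70 (without Lpr 3) to that value. The median of the 10 genes was -0.65 in edgeR, -0.28 without Lpr 1, -0.94 without Lpr 3 and -0.41 in limma on log2(FPKM + 1), and adjusted p lay between 0.25 and 0.997 over the alternatives. With Tgtp1 and Tgtp2 counts summed, an alternative chosen after seeing the data, the log2 fold change was 4.46, 3.69 and -0.76 in the 3 comparisons, with the same calls as Tgtp2.

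Kidneys of the same replicate number did not deviate together, with correlations of -0.217 to 0.0761, -0.277 to -0.0707 and -0.108 to 0.159 in the 3 comparisons, so the numbers were not used as pairs. With the number as a replicate block, 10 genes passed and 9 were called in Lpr against Ctr, 10 passed and 8 were called in DNase against Ctr, and 0 passed in DNase against Lpr, with a median of -0.47.

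With 3 or 4 kidneys per group, spread between libraries limits the precision, and for rare genes such as Ifng the counts limit it too. The intervals of DNase against Lpr allow a fall to under -1 on the log2 scale for each gene and, for all but Gbp3, no change.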
